A study of Mus musculus with 24 samples.

Results

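The loss of Sox2 in L-EPSCs was followed in 4 of the 24 poly(A) RNA libraries of the series, 2 from untreated and 2 from doxycycline (Dox)-treated L-EPSCs of the line 2TS22C, chosen by their labels. L-EPSCs are mouse embryonic stem cells (ESCs) converted in a cocktail of LIF and small molecules, and the study compared them with ESCs, with D-EPSCs made by another cocktail, and with their own Dox-treated state. In 2TS22C, a Sox2 tet-off knock-in line, both endogenous copies of Sox2 are deleted and a transgene that Dox switches off is the source of Sox2. The same fit holds 2 ESC libraries of this line and the 12 libraries of ZHBTc4 and NgcKO, tet-off lines built in the same way for Oct4 and Nanog. All groups carry such a deletion, no group of a line without a tet-off gene received Dox in the table used here, and Sox2 was the gene switched off in 1 line only, so that an effect of Dox itself and of this line cannot be told apart from loss of Sox2 within it. The medium of all L-EPSC groups holds LIF, CHIR99021, XAV939, the MEK inhibitor PD0325901, A-419259, JNK inhibitor VIII and SB203580. The study's methods say that L-EPSCs were kept without feeder cells before sequencing. A dose and a length of Dox treatment are given for other assays of these lines, but neither the labels nor the methods tie them to the RNA libraries. Nothing states that the 2 libraries of a group came from separate cultures, so the p-values measure only the spread between these libraries.

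Sox2 is a transcription factor of the SOX family, whose members bind DNA through a high mobility group box. In pluripotent cells it binds next to Oct4, the product of Pou5f1, at composite Oct-Sox elements, and both factors act on their own genes and on those of many other pluripotency regulators. In the early embryo it marks the inner cell mass and the epiblast, while the trophectoderm, the precursor of the placenta, is set apart by factors such as Cdx2, Gata3 and Tfap2c.

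The reads of the 4 libraries ranged from 11441990 to 14798984, and the 10 genes with the most reads took 6.11% to 7% of them. The values are normalized counts, which are reads divided by a size factor of each library, and 1 read was worth 0.818 to 1.08 normalized counts. Differences are given as log2 fold changes of (normalized count + 1) with their standard errors, from limma fitted to 18 libraries with 2 in each of 9 groups, and a gene was called when its Benjamini-Hochberg adjusted p over the 24007 genes tested was below 0.05 and its change was at least 2-fold. Replicate libraries lay close together, with a common coefficient of variation of 0.0301 beyond counting error. An exact permutation test of 2 libraries against 2 cannot give a two-sided p below 0.333, so single genes were judged by the fit across all genes. Because the RNA is from bulk cultures, fewer cells of a type and less RNA per cell cannot be told apart.

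Oct-Sox elements were searched near the genes of the report because 8 of them are textbook genes with such an element. In the window searched, Nanog, Utf1 and Fbxo15 of these 8 had a match. The matches at Nanog and Utf1 are shown as examples, and all 3 genes fell after Dox. Both runs are from the minus strand of NCBIM37, 5′ to 3′, and capitals mark the letters searched, which were CATTGT, bound by SOX factors, then any base and ATGNNA, the start of the octamer bound by Oct4.

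Nanog, chr6:122657425-122657454: caccatggaCATTGTAATGCAAaagaagct
Utf1, chr7:147131574-147131603: atgagccgtCATTGTTATGCTAgtgaagtg

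The element of Nanog, at 122657433 to 122657445, lies 74 bases before the annotated start of the gene (chr6:122657507-122664651, plus strand). The element of Utf1, at 147131582 to 147131594, lies 1894 bases after the start of a gene that ends at 147131011, so it is downstream of the gene. Matches of this pattern were as frequent near other genes. Within 5000 bases of the start, on both strands, it was present at 2.19% of 1507 genes that fell, 1.9% of 1685 that rose and 2.11% of 15110 called in neither direction. Among RefSeq promoters of 300 bases, 36 of 32851 (0.11%) held it. A match is a description of the letters and not a binding site.

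Sox2 itself (chr3:34548927-34551383, NCBIM37, within the longer noncoding gene Sox2ot on the same strand) was checked first. Its level was 5688 and 5497 normalized counts in ESCs, 4966 and 4701 in untreated L-EPSCs, and 47 and 53.1 in Dox-treated L-EPSCs. The treated libraries lay far below both other groups and did not overlap them. Sox2 fell by 6.57 ± 0.055 on the log2 scale, or 94.8-fold (adjusted p = 2.4e-20, limma). With the transgene off, reads on Sox2 were low but not at 0.

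Of the 24007 genes tested, 1870 (7.79%) were higher and 1758 (7.32%) were lower in Dox-treated than in untreated Sox2 L-EPSCs. The median log2 fold change was 0 over all genes. Both shares are the background for the list counts given below. Most naive pluripotency genes fell, as did many genes of the FGF, ERK and Nodal pathways. Most trophoblast genes rose. In lists drawn up only after values had been seen, most interferon-stimulated genes and several imprinted genes of the placenta were higher too. No gene of the mesoderm, neural and HOX lists was called higher. The plot of the 26 lists drawn up first shows the position of each member tested, and leaves out the 3 lists added later. Those 26 lists were themselves chosen with earlier results of these data known.

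**Figure D1:**
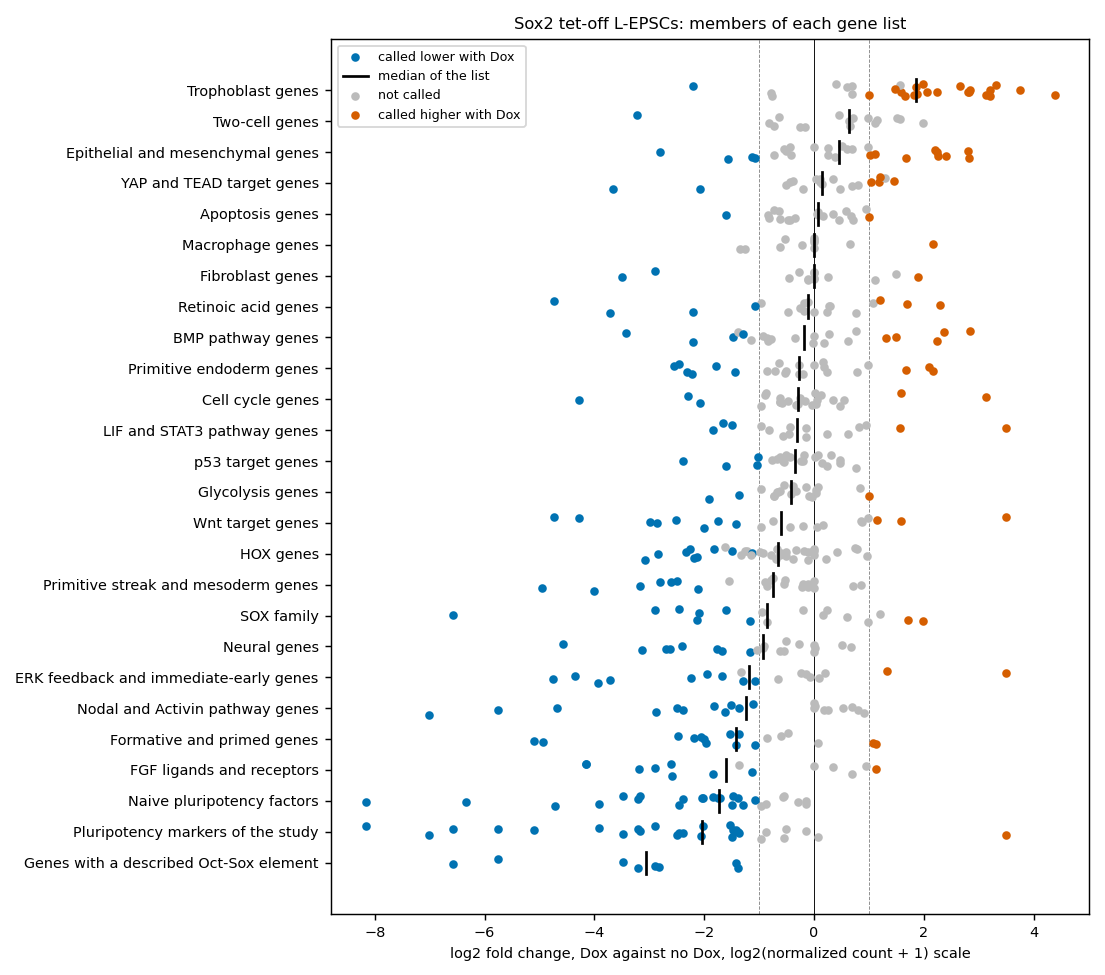
Each point is a gene, placed on the x axis by its log2 fold change in Dox-treated against untreated Sox2 tet-off L-EPSCs (2 libraries each) and on the y axis by its list. Blue points were called lower, orange points higher and grey points were not called, with black bars for the medians and dashed lines at a 2-fold change. The median is -3.06 for genes with an Oct-Sox element, Sox2 included, -1.73 for naive factors and 1.86 for trophoblast genes.

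The list of 8 genes with a described Oct-Sox element holds Sox2 itself, which Dox switched off. The other 7 were all called lower, against 7.32% of all genes tested, with a median of -2.9. They are Pou5f1, Nanog, the growth factor gene Fgf4, the chromatin protein gene Utf1, the F-box gene Fbxo15, the Nodal inhibitor gene Lefty1 and the zinc finger gene Zscan10. They differed widely in how far they fell.

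Nanog, the homeobox factor shown above by its element, had 7883 and 7557 normalized counts without Dox and 654 and 733 with Dox. It fell by 3.48 ± 0.043 or 11.1-fold (adjusted p = 4.9e-18, limma). Pou5f1, the gene of Oct4, went from 8221 and 8489.9 to 3291 and 3073. That is a fall of 1.39 ± 0.049, or 2.63-fold, and Dox-treated cells therefore kept a sizeable amount of Pou5f1 RNA. Fbxo15 went from 4115 and 4082 to 445 and 437 and Fgf4 from 3722 and 3566 to 507 and 467. Both are textbook targets of the Oct4 and Sox2 pair, and they fell by 3.21 ± 0.042 and 2.9 ± 0.072. Utf1, shown above, had the smaller fall of 1.42 ± 0.061, from 899.9 and 841 to 353 and 300.1. Zscan10 went from 686 and 701 to 104 and 91.6, a fall of 2.82 ± 0.089. In each of these genes the treated and untreated libraries were far apart relative to the gap between replicates.

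Lefty1 was close to absent after Dox. It had 81 and 63.8 normalized counts in untreated libraries, and 0 and 0.818, a single read in all, in treated ones. The ratio of untreated to treated was 176 with an exact 95% counting interval of 31 to 6984. Lefty2, a neighbouring paralog that can share reads with it, went from 165 and 182 to 0 and 0.818, with a ratio of 423 and an interval of 75.4 to 16762.

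Among the 17 SOX family members tested, 7 were lower, Sox2 itself among them, and 2 were higher, with a median of -0.86, or -0.53 without Sox2 (-0.59 for all when genes with no read in a group are set at the bound that 3 reads a library allow). Sox21, a SOX B gene like Sox2 that acts as a repressor, went from 579 and 582 to 62.7 and 95.7 (log2 fold change -2.89 ± 0.16). Sox13 went from 423 and 465 to 104 and 102 (-2.1 ± 0.11). The 2 members that rose were Sox4, from 252 and 269 to 836 and 874 (1.71 ± 0.066), and Sox9, a regulator of many epithelial and skeletal progenitors, from 33.5 and 30.9 to 129 and 132 (1.98 ± 0.34). The closest relative measured, Sox3, had 46.5 and 34.9 normalized counts without Dox and 28.9 and 16.4 with Dox and was not called. Sox15, another SOX gene of ESCs, was not called either, at 232 and 239 against 199.6 and 211. The calls for Sox10, Sox11, Sox17 and Sox18 were each lost without at least 1 of the 4 libraries, and without either untreated library 4 members were called lower. Sox11 had 25.9 and 61.9 against 10.7 and 27.8, so its groups overlapped. Without 1 untreated library, replicate 2, its change was -0.55, and without treated replicate 1 it was -0.51.

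The naive pluripotency list had 26 members, of which 19 fell, none rose and the median was -1.73. The factors of the list did not move as 1 block. Nr0b1, Tcl1, Pecam1, Prdm14, Nanog and Esrrb fell far, whereas Klf2, Nr5a2 and Stat3 were not called and lay within 1.22-fold of their untreated levels. Summed over the list, the normalized counts went from 80862 and 80173 to 24768 and 24432, against 99876 and 99826 in ESCs of the line.

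Nr0b1, the orphan nuclear receptor Dax1, had 291 and 281 normalized counts in untreated libraries and no read in either treated library. Against the floor of 3 reads per library it was at least 116-fold lower. Tcl1, a co-activator of the kinase Akt, went from 568 and 484 to 7.42 and 4.09, a fall of 6.33 ± 0.17 (adjusted p = 5.8e-14, limma). These 2 genes had the lowest treated levels of the list relative to their untreated levels.

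Prdm14, which keeps DNA methylation low in naive cells, went from 540.1 and 519 to 33 and 35.2 (-3.92 ± 0.11). Esrrb, an orphan nuclear receptor of the naive network, went from 5570 and 5493 to 609.6 and 614 (-3.17 ± 0.05). Pecam1, a surface adhesion molecule of ESCs, went from 2165 and 2134 to 83.3 and 77.7 (-4.72 ± 0.12). Milder falls of 1.84 ± 0.057 for Klf4, 1.47 ± 0.056 for Klf5, 1.49 ± 0.031 for Tfcp2l1, 2.02 ± 0.053 for Zfp42 and 1.07 ± 0.042 for Tbx3 left 525 normalized counts or more in each treated library. Dppa5a, a marker of ESCs, fell by 2.45 ± 0.046 and Dppa3, a maternal factor also called Stella, by 1.71 ± 0.13. The other end of the list was near its untreated level. Klf2, a Krüppel-like factor of the naive network, had 2419 and 2354 normalized counts without and 1909.7 and 2007 with Dox (-0.29 ± 0.045). Nr5a2, which can drive Pou5f1, had 778 and 715 against 652 and 696 (-0.15 ± 0.074, adjusted p = 0.14, limma). Stat3, the transducer of LIF, had 2158 and 2224 against 1958 and 1985 (-0.15 ± 0.04). The LIF receptor genes Lifr and Il6st had log2 fold changes of -0.97 ± 0.086 and -0.57 ± 0.06, below the 2-fold limit of a call.

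**Figure D2:**
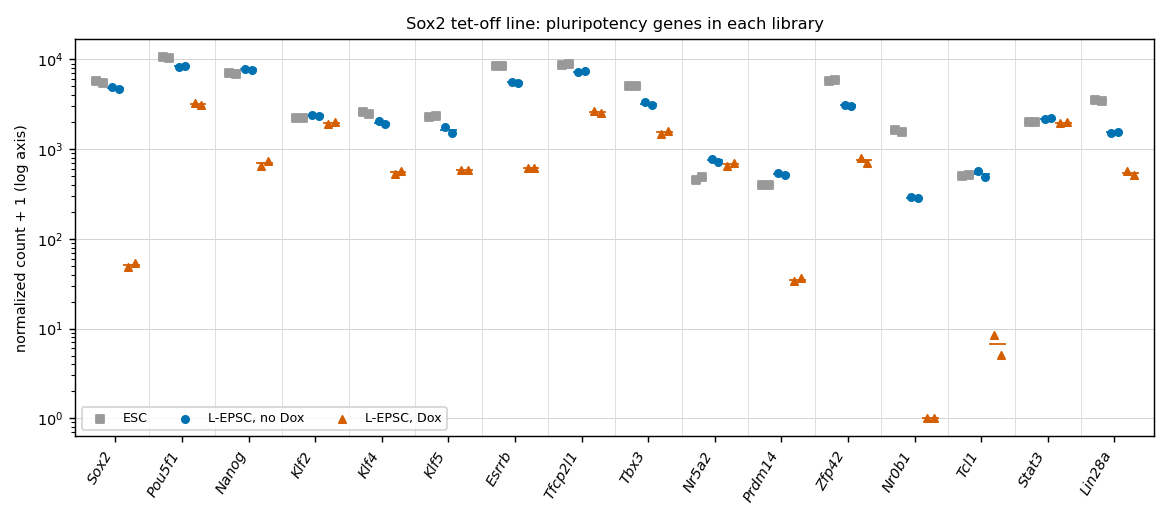
Normalized counts + 1 on a log axis for 16 pluripotency genes (x axis), with each of the 6 libraries of the Sox2 tet-off line as a point and a short bar at the mean of each pair. Grey squares are ESCs, blue circles untreated L-EPSCs and orange triangles Dox-treated L-EPSCs. Sox2 drops to 47 and 53.1 and Nr0b1 to 0, while Klf2, Nr5a2 and Stat3 stay near their untreated values.

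A list of 28 pluripotency markers that the study selected for display gave 21 lower and 1 higher, with a median of -2.04. It holds Sox2 itself and was drawn up within the study, and is not independent evidence of a direction. The higher member was Myc, which is described with the ERK genes.

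Genes of the formative and primed states, which follow the naive state in the embryo, fell rather than rose. Of 17 tested, 11 were lower and 2 higher, with a median of -1.42. Otx2, a homeobox factor of the exit from naive pluripotency, went from 463 and 454 to 77.5 and 86.7 (-2.47 ± 0.1). Foxd3, a forkhead factor of the epiblast, went from 116 and 94.8 to 2.47 and 2.45 (-4.93 ± 0.59). The RNA-binding protein gene Lin28a went from 1513 and 1553 to 563 and 509 (-1.52 ± 0.054). Members with higher calls were Dnmt3a and Fgf5. Dnmt3a, a de novo DNA methyltransferase, went from 1235 and 1175 to 2493 and 2553 (1.07 ± 0.044), which is just past the limit and at 1 when libraries were centred on their median. Fgf5 had no read without Dox and at most 1.64 normalized counts with Dox, so no fold is given. Its call was lost with edgeR, with DESeq2, with median centring and when only the libraries compared were fitted. The sister enzyme gene Dnmt3b stood at 1103 and 1148 against 1231 and 1152 and was not called.

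Several feedback inhibitors of FGF and ERK signalling fell with Dox, while others, such as Dusp5 and Spred2, were not called. FGF4 from pluripotent cells acts on FGF receptors and, through MEK and ERK, switches on inhibitors of the same pathway. Among 14 FGF ligands and receptors, 8 were lower and 1, Fgf5, described above, was higher, with a median of -1.6. In the list of 18 ERK feedback and immediate-early genes, 9 were lower and 2 were higher, with a median of -1.19. Untreated L-EPSCs already stood below ESCs for many of these genes.

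Among ligands, besides Fgf4, Fgf3 went from 77.8 and 81.8 to 2.47 and 4.91 (-4.16 ± 0.34) and Fgf15 from 46.5 and 27.9 to 0 and 3.27 (-4.16 ± 0.51). The receptors differed from each other. Fgfr1, the main receptor of the epiblast, stood at 2148 and 2077 without and 2125 and 2108 with Dox (0.003 ± 0.041). Fgfr3 fell from 111 and 98.8 to 19 and 14.7 (-2.58 ± 0.24), and Fgfr4 was called at -1.12 ± 0.23 but not without untreated replicate 1 (-0.9) or treated replicate 1 (-0.89). Fgfr2, the receptor of trophoblast and primitive endoderm, had 309 and 298 against 606 and 563, and its change of 0.94 ± 0.1 lay under the 2-fold limit.

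The feedback inhibitors fell to low levels. Dusp4 and Dusp6, phosphatases of ERK, went from 131 and 129.7 to 2.47 and 5.72 (-4.76 ± 0.28) and from 126 and 139.7 to 9.07 and 6.54 (-3.94 ± 0.36). Spry2 and Spry4, Sprouty inhibitors of receptor signalling, went from 334 and 342 to 111 and 98.1 (-1.68 ± 0.099) and from 34.6 and 32.9 to 1.65 and 1.64 (-3.72 ± 0.24). In ESCs of the line the same 4 genes had between 654 and 1306 normalized counts. Their order was therefore ESC above untreated L-EPSC above treated L-EPSC, with no overlap. The ETS factors Etv4 and Etv5, transcribed in response to FGF, went from 326 and 299 to 13.2 and 15.5 (-4.35 ± 0.29) and from 2290.2 and 2379 to 601 and 616 (-1.94 ± 0.045). Several immediate-early genes did not follow them, but not all. Phlda1 changed by -1.29. Egr2 changed by -1.32 when only the libraries compared were fitted, and was called there but not in the fit of 18 libraries. Egr1 had 75.6 and 52.9 against 56.1 and 63.8, with overlapping libraries, and Ier2 and Ier3 were not called. Fos rose from 527 and 535 to 1357 and 1341 (1.34 ± 0.14), and Myc rose from 34.6 and 35.9 to 390.2 and 424 (3.49 ± 0.26, adjusted p = 1.5e-08, limma). With Dox, Myc RNA was thus 11.2-fold higher, a level near the 325 and 300 of ESCs.

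**Figure D3:**
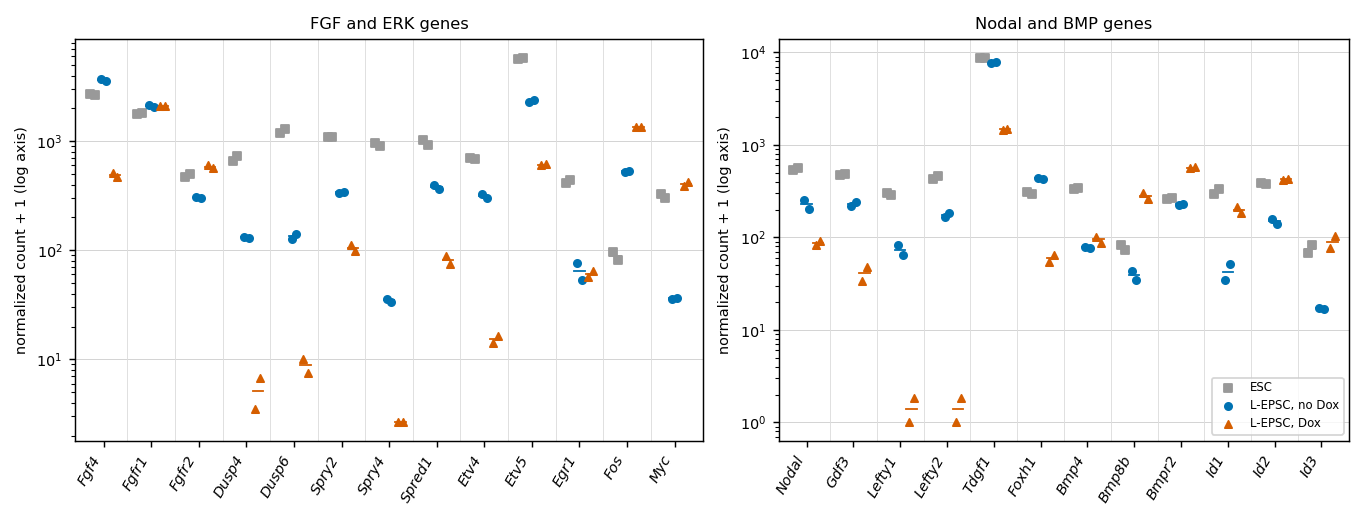
Normalized counts + 1 on a log axis for genes of the FGF and ERK (left) and the Nodal and BMP (right) pathways, with 1 point for each library of the Sox2 tet-off line and a bar at the mean of each pair. Grey squares are ESCs, blue circles untreated and orange triangles Dox-treated L-EPSCs. Dusp4, Dusp6, Spry4, Lefty1 and Lefty2 are below 10 normalized counts with Dox, whereas Fos, Myc, Id1, Id2 and Id3 lie above their untreated values.

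In the Nodal and Activin pathway, in which Nodal signals with the co-receptor encoded by Tdgf1 through Smad2, Smad3 and Foxh1, 11 of 20 genes were lower and none was higher (median -1.24). Apart from Acvr1c, the falls named here were in ligands, the co-receptor, Foxh1 and inhibitors. Nodal went from 252 and 203 to 82.5 and 90.8 (-1.37 ± 0.099) and the related ligand gene Gdf3 from 215 and 243 to 33 and 47.4 (-2.5 ± 0.14). Tdgf1 went from 7611 and 7784 to 1457 and 1496 (-2.38 ± 0.03). Foxh1, the DNA-binding partner of Smad2 and Smad3, went from 441 and 428 to 53.6 and 63 (-2.88 ± 0.11). Fst, the gene of the Activin inhibitor follistatin, had 32.4 and 34.9 normalized counts without Dox and 1 read with Dox, a ratio of 82.1 with a counting interval of 14.2 to 3292. The type I receptor gene Acvr1c was called lower from a few reads, with 1.08 and 4.99 normalized counts without Dox and none with Dox, and the call was lost when only the libraries compared were fitted and without untreated replicate 2 (-1.06) or either treated library. The other receptors and the Smads of the list were not called. Smad4 had 1027 and 971 against 1069.9 and 945 (0.01 ± 0.072), Acvr1b had a change of 0.012 ± 0.057, and Smad3 one of 0.8 ± 0.095.

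The BMP list was mixed, with 5 of 22 genes higher, 4 lower and a median of -0.18. The higher genes included 3 of the 4 Id genes, which encode inhibitors of basic helix-loop-helix factors and are standard targets of BMP signalling. Id1 went from 33.5 and 49.9 to 214 and 183 (2.25 ± 0.16), Id2 from 158 and 139.7 to 419 and 424 (1.5 ± 0.15), and Id3 from 16.2 and 16 to 75.1 and 102 (2.37 ± 0.21). Id4 moved the other way, from 75.6 and 66.8 to 28 and 22.1 (-1.48 ± 0.3). The ligand gene Bmp8b rose from 42.1 and 33.9 to 299 and 258 (2.84 ± 0.26) and the type II receptor gene Bmpr2 from 224 and 230.5 to 563 and 569 (1.31 ± 0.13). Bmp4, the ligand gene best known from ESC culture, had 77.8 and 75.8 against 101 and 86.7 and was not called (adjusted p = 0.11, limma). The inhibitory Smad gene Smad6 fell from 111 and 129.7 to 44.5 and 53.1 (-1.29 ± 0.19), and Msx2, a homeobox target of BMP, from 70.2 and 54.9 to 16.5 and 9.81 (-2.2 ± 0.31).

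Of 20 Wnt target genes, 8 were lower and 3 were higher, with a median of -0.6, in a medium that holds both CHIR99021, which activates the pathway, and XAV939, which inhibits it. Axin2, a general Wnt target, stood at 73.5 and 64.8 against 59.4 and 61.3 (-0.19 ± 0.16, not called). Tcf7 went from 1075 and 1087 to 292 and 350 (-1.75 ± 0.08) and Apcdd1, a membrane-bound Wnt inhibitor gene, from 317 and 268 to 32.2 and 40.1 (-2.99 ± 0.17). Ccnd1, which encodes cyclin D1, went from 408 and 390.1 to 15.7 and 24.5 (-4.28 ± 0.24, 19.4-fold). The higher genes were Myc, Cdx2 and Rnf43, and without any of 3 libraries (untreated replicate 1 or either treated one) Myc was the only higher member.

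Most trophoblast genes rose. Of 28 measured, 20 were higher, against 7.79% of all genes tested, 1 was lower and the median was 1.86. Summed, they went from 18312 and 18016 normalized counts to 160582 and 161203, of which the Dox-treated cells had 122218 and 122905 from Peg10 alone. Keratins, placental genes and several transcription factors of trophoblast rose together, while Eomes and Hand1 were not called and Cdx2 reached at most 22.1 normalized counts.

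Among the transcription factors, Gata2 went from 610.4 and 572 to 2171 and 2119 (1.86 ± 0.15) and Gata3 from 136 and 123 to 495 and 529 (1.98 ± 0.31). Tfap2a went from 73.5 and 77.8 to 355 and 368 (2.24 ± 0.25), Dlx3, a homeobox gene of the placenta, from 175 and 156 to 1039 and 1061 (2.66 ± 0.12), and Ascl2 from 109 and 124 to 461 and 515 (2.06 ± 0.23). Tfap2c, high in both states, went from 1727 and 1799 to 3520 and 3577, a change of 1.01 ± 0.041 that fell below the limit without untreated replicate 1 (0.98). Elf5, a guardian of trophoblast stem cells, went from 3.24 and 5.99 to 50.3 and 48.2 (3.21 ± 0.67). Treated libraries exceeded untreated ones in each of these genes, and for Elf5 the increase began from a few reads.

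Cdx2, the factor that starts the trophectoderm programme, rose from 7.56 and 4.99 to only 19 and 22.1 (1.58 ± 0.55, adjusted p = 0.031, limma), and this call was lost without any 1 of the 4 libraries (changes of 1.33 to 1.84). Eomes had 91.8 and 74.8 against 45.4 and 50.7 (-0.78 ± 0.17) and Hand1 105 and 112 against 62.7 and 63 (-0.77 ± 0.32), and neither was called. Of the late markers, Gcm1, of the labyrinth, had 4.32 and 16 against 18.1 and 7.36 and was not called. Tpbpa, of the spongiotrophoblast, had no read without Dox and at most 3.3 normalized counts with Dox. Tpbpa counted as a higher member, but its call was lost with edgeR, with DESeq2 and when only the libraries compared were fitted. Msx2 was the member that fell.

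Of structural and placental genes, the simple-epithelium keratins moved almost in step. Krt8 went from 737 and 787 to 5346 and 5337 (2.81 ± 0.066), Krt18 from 633 and 606 to 4404 and 4436 (2.83 ± 0.058), Krt7 from 134 and 157 to 1088 and 997 (2.84 ± 0.19), and Krt19 from 588 and 582 to 5849.6 and 5752 (3.31 ± 0.13). Their folds lay between 7.01 and 9.91. Plac1, an X-linked placental gene, went from 59.4 and 57.9 to 1244 and 1259 (4.39 ± 0.22, adjusted p = 8.8e-11, limma), 21-fold. Rhox6 and Rhox9, X-linked homeobox genes that are close copies and may share reads, went from 403 and 376 to 3470.5 and 3414 (3.14 ± 0.085) and from 384 and 344 to 3366 and 3319 (3.2 ± 0.23). Peg10, a retrotransposon-derived imprinted gene needed for the placenta, went from 9174 and 8929 to 122218 and 122905 (3.76 ± 0.025, 13.5-fold).

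In ESCs of the line Krt8 had 2715 and 2621 and Peg10 33501 and 33246 normalized counts, above the untreated and below the Dox-treated L-EPSCs.

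**Figure D4:**
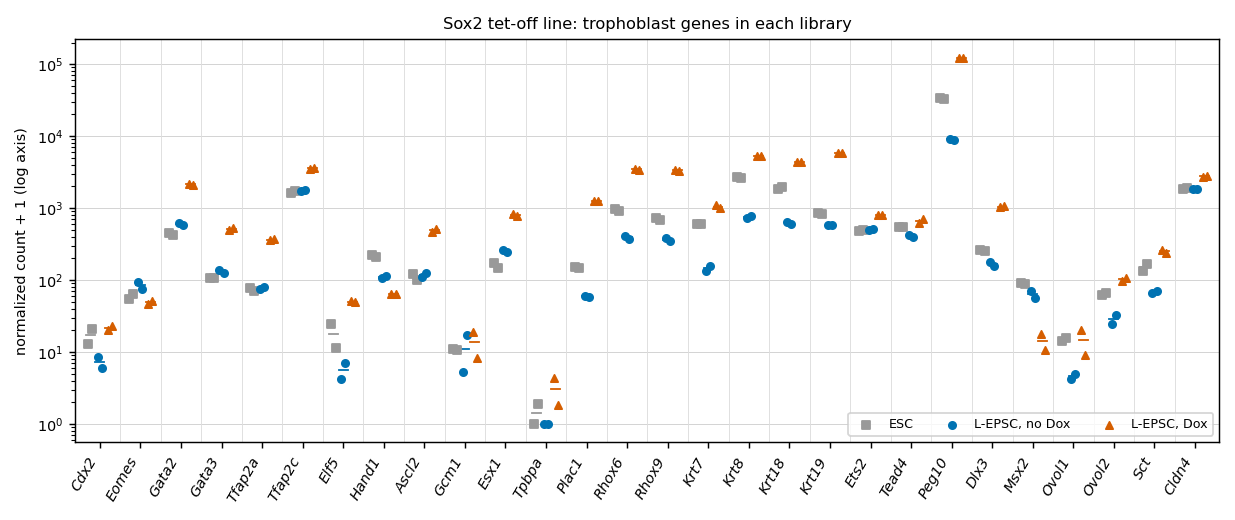
Normalized counts + 1 on a log axis for the 28 trophoblast genes (x axis), 1 point for each library of the Sox2 tet-off line with a bar at the mean of each pair. Grey squares are ESCs, blue circles untreated and orange triangles Dox-treated L-EPSCs. Keratins, Plac1, Rhox6, Rhox9 and Peg10 rise to between 997 and 122905 with Dox, whereas Cdx2 rises only to near 20 and Eomes and Hand1 lie below their untreated points.

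Fewer genes of other lineages than of trophoblast were called higher. The shares over all genes tested were 7.79% higher and 7.32% lower. In the primitive endoderm list, 3 of 23 genes were higher and 6 were lower (median -0.28). Gata4 went from 44.3 and 37.9 to 14 and 8.99 (-1.78 ± 0.4), Gata6 had 218 and 191 against 140.2 and 146 and was not called, and the basement membrane genes Lama1 and Col4a1 fell by 2.31 ± 0.042 and 1.43 ± 0.062. The higher members were Pdgfra, from 34.6 and 47.9 to 186 and 186 (2.17 ± 0.22), the collagen chaperone gene Serpinh1 (1.67 ± 0.052) and Foxa2, which was at 0 without Dox and at most 3.3 normalized counts with Dox and was not called without any 1 of the 4 libraries. Of 23 primitive streak and mesoderm genes, 7 were lower and none was higher (median -0.75). Gsc, an organizer gene, went from 64.8 and 91.8 to 2.47 and 0.818 (-4.96 ± 0.47), and the sum over the list was 353 and 353 without and 127 and 136 with Dox.

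Sox2 is also a factor of neural progenitors. Of 20 neural genes 8 were lower and none was higher (median -0.92), against 7.32% lower and 7.79% higher over all genes tested. Tubb3, the neuronal tubulin gene, went from 367 and 306 to 49.5 and 27.8 (-3.14 ± 0.19) and the RNA-binding protein gene Msi1 from 1106 and 1070.5 to 324 and 353 (-1.68 ± 0.064). Nes, an intermediate filament gene of neural progenitors, stood at 662 and 681 against 647 and 715 (0.017 ± 0.085). Of 38 HOX genes, 9 were lower and none was higher, with a median of -0.65 (-0.62 with genes without a read at their bound), mostly from under 40 normalized counts. Without either untreated library 5 of them were lower, and without untreated replicate 1 another 1 was higher.

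The epithelial and mesenchymal list had 9 of 26 genes higher and 4 lower (median 0.45). Epithelial genes were divided. Cldn3 and Cldn7, claudins of tight junctions, rose by 2.25 ± 0.16 and 1.67 ± 0.14, and Esrp1 and Esrp2, splicing regulators of epithelia, by 1.11 ± 0.13 (0.95 and not called without untreated replicate 2) and 2.26 ± 0.14. Cdh3, the P-cadherin gene, fell from 616 and 662 to 288 and 297 (-1.12 ± 0.065), and Cldn6, Ocln and the desmoplakin gene Dsp, at -0.5 ± 0.057, -0.43 ± 0.17 and 0.26 ± 0.038, were not called. The smooth muscle actin gene Acta2 and Tagln rose too, from 10.8 and 16 to 83.3 and 66.2 (2.41 ± 0.49) and from 33.5 and 42.9 to 189.7 and 167 (2.2 ± 0.23). Fn1, the fibronectin gene, fell from 29559 and 29441 to 9926 and 9955 (-1.57 ± 0.032), and Twist1 from 38.9 and 25.9 to 4.12 and 3.27 (-2.81 ± 0.44). Cdh1, the E-cadherin gene, had 7358 and 7536 against 8664 and 9021 (0.25 ± 0.03) and was not called. The YAP and TEAD list holds both targets and pathway members such as Tead3. Among its 19 genes 4 were higher and 2, Ccn2 and Axl, were lower (median 0.14). Tead3 rose by 1.45, Amotl2 was called higher but not when libraries were centred on their median (0.97), and Axl fell by 2.07. The standard target Ccn2 fell 12.6-fold, from 657 and 643 to 49.5 and 51.5, whereas Ccn1 had 743 and 668 against 469 and 518 and was not called.

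Of 25 cell cycle genes, 2 were higher and 3 were lower (median -0.29), near the 7.79% higher and 7.32% lower of all genes tested. Cdkn1c, the gene of the cyclin-dependent kinase inhibitor p57 and imprinted, went from 371 and 314 to 2905 and 3092 (3.13 ± 0.07) and Ccne2, for cyclin E2, from 134 and 138 to 385 and 430.1 (1.58 ± 0.1). Cdk6, a partner of cyclin D1, fell from 134 and 133 to 25.6 and 27 (-2.3 ± 0.25), beside Ccnd1 described above. Of 22 p53 target genes, 4 were lower and none was higher (median -0.34), with Cdkn1a, for p21, at 1755 and 1809 against 2500.4 and 2466 and not called. Apoptosis genes had 1 higher and 1 lower of 20 (median 0.068), also near the shares over all genes. The lower one was Pmaip1, for Noxa, at 339 and 369 against 98.2 and 137.

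Most members of the remaining lists were not called. Over all genes tested, 7.79% were higher and 7.32% lower. The LIF and STAT3 list had 2 of 16 higher and 3 lower (median -0.3), with Lif itself up from 71.3 and 98.8 to 271 and 231 (1.56 ± 0.22), Socs2 down from 547 and 516 to 172 and 164 (-1.66 ± 0.17), and the feedback gene Socs3 not called at -0.15 ± 0.052. Retinoic acid genes had 3 of 19 higher and 4 lower (median -0.1). Stra8, the meiosis gene induced by retinoic acid, went from 1185 and 1244 to 5976 and 5894 (2.29 ± 0.09), while Crabp1 and Cyp26a1, for a retinoic acid binding protein and a degrading enzyme, fell from 328 and 269 to 19.8 and 23.7 and from 33.5 and 35.9 to 0 and 0.818. Of 20 glycolysis genes 1 was higher and 2 were lower (median -0.41), and the lower ones were Ldhb, from 9793 and 9917 to 2578 and 2662, and Pfkp, from 6932 and 6836 to 2729 and 2643. Of 16 genes of the 2-cell stage embryo, none was higher and 1, Obox6, was lower (median 0.64). Their levels were low, and Zscan4d, a member of a family of near copies, had 10.8 and 14 against 15.7 and 18.8.

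Markers of other cells that a culture could hold were low. Of 14 fibroblast genes tested 1 was higher and 2 were lower (median 0), and their sum over 15 genes in the table was 822 and 782 without and 560.1 and 637 with Dox. Col1a1, the leading collagen gene of fibroblasts, had 20.5 and 25.9 against 19.8 and 18. Of 11 macrophage genes 1 was higher, Csf1r, from 3.24 and 11 to 35.5 and 27, a call lost without untreated replicate 1 or either treated library, and none was lower (median 0). Most of their sum of 426 and 403 against 375 and 382 came from Cd68, a lysosomal gene that many cells express.

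The largest changes over the whole table, among genes whose mean reached 100 normalized counts, overlapped with these lists. The 15 largest rises were led by Vav3, a guanine nucleotide exchange factor gene, from 13 and 7.98 to 304 and 339 (4.85 ± 0.28), and Vgll3, a cofactor of TEAD factors, from 18.4 and 21.9 to 533 and 598 (4.75 ± 0.26). Vgll1, of the same family, rose from 9.72 and 12 to 191 and 192 (4.03 ± 0.53). Beside Plac1 and Peg10, Phlda2, an imprinted gene that limits placental growth, rose from 211 and 229 to 3417 and 3272 (3.92 ± 0.068), and Ldoc1, another retrotransposon-derived gene, from 46.5 and 57.9 to 913 and 948 (4.14 ± 0.26). Olr1, Magea9, Chdh, Fgfbp1, Nacad and C430049B03Rik had log2 fold changes of 3.79 to 4.3. In all 15 genes each treated library lay above each untreated one, as the choice of genes required.

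Xist, the noncoding RNA of the inactive X chromosome, was also among them, from 51.9 and 51.9 to 1292 and 1297 (4.61 ± 0.44). It overlaps Tsix on the opposite strand, and since the strand setting of the counting is not given in the sources used here, reads of the 2 genes cannot be told apart. Of 547 X-linked genes whose mean reached 10 normalized counts, 14.6% were higher and 8.59% lower with Dox, with a median of 0.162, whereas higher calls made up 8.45% to 11.4% of the genes on each autosome.

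Beside Sox2, Nr0b1, Tcl1 and Pecam1, the 15 largest falls held genes of cell surface and membrane. Jam2, a junctional adhesion molecule gene, went from 1019.8 and 1047 to 17.3 and 17.2 (-5.82 ± 0.39), Fut9, which makes the SSEA-1 carbohydrate of ESCs, from 251 and 271 to 6.6 and 1.64 (-5.87 ± 0.32), and Nrp2, a neuropilin gene, from 353 and 388 to 12.4 and 13.1 (-4.76 ± 0.24). Mobp, a myelin gene, had 221 and 221 normalized counts without Dox and 3 reads in all with Dox, a ratio of 179.8 with a counting interval of 61.1 to 875. Zfp365, Ly6g6e, Ifitm1, Septin1, Acsbg3 and Fam25c had log2 fold changes of -5.57 to -4.77.

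A further 3 lists were drawn up after values had been seen and are descriptions only. They stand beside 7.79% higher and 7.32% lower over all genes tested. Of 25 imprinted genes, 10 were higher and 3 were lower (median 0.22). The neighbours H19 and Igf2 both rose, H19 from 11794 and 11731 to 130738 and 135723 (3.5 ± 0.1) and the growth factor gene Igf2 from 108 and 139.7 to 1392 and 1388 (3.49 ± 0.086). Peg3 rose from 2166 and 2177 to 8799 and 8461 (1.99 ± 0.044), and Slc22a18, next to Phlda2 and Cdkn1c, from 18.4 and 33.9 to 238 and 214 (3.12 ± 0.26). Dlk1 and Plagl1 fell by 2.28 ± 0.39 and 1.28 ± 0.1.

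Of 26 interferon-stimulated genes, 19 were higher and 2 were lower, with a median of 2.35, or 1.64 with genes without a read at their bound. The calls for Ifi44, Ifit1, Irf7, Mx2 and Usp18 were lost when only the libraries compared were fitted. That of Irgm1 was lost without either untreated library. Rsad2, for the antiviral protein viperin, went from 35.6 and 25.9 to 709 and 713 (4.5 ± 0.49) and Bst2, for tetherin, from 296 and 259 to 1237 and 1321 (2.2 ± 0.081). Isg15 had no read without Dox and 59.4 and 58.1 normalized counts with Dox, at least 18.8-fold higher. Ifih1, for the RNA sensor MDA5, had 1 read without Dox and 37.1 and 54.8 normalized counts with Dox, a ratio of 88.7 with an interval of 15.6 to 3533. The 2 lower members, Ifitm1 and Ifitm3, are membrane proteins that pluripotent cells express without interferon. Ifitm1 went from 776 and 808 to 22.3 and 27 (-4.96 ± 0.26) and Ifitm3 from 633 and 598 to 124 and 132 (-2.26 ± 0.09).

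Of 34 genes of striated muscle, 13 were higher and 2 were lower (median 0.86). Actn2, for a sarcomeric actinin, went from 501 and 554 to 1666 and 1635 (1.65 ± 0.12), Tnnt1, a troponin gene, from 125 and 123 to 596 and 679 (2.35 ± 0.2), Trim54 from 79.9 and 64.8 to 342 and 375 (2.3 ± 0.33) and Obsl1 from 387 and 334 to 2605 and 2729 (2.89 ± 0.065). Cardiac myosin genes were divided. Myh7 fell from 30.2 and 25.9 to 4.95 and 0.818 (-3.14 ± 0.62) and Myl7 from 34.6 and 45.9 to 10.7 and 8.99 (-1.92 ± 0.29). Myl4 was called higher, but not when only the libraries compared were fitted (1.38) or without untreated replicate 1 (0.99). Myl2 had a change of 1.26 and was not called, and Mybpc3, for a myosin-binding protein, rose by 3.17.

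To see where loss of Sox2 differed from loss of its partner Oct4, the Dox effect in the Sox2 line was set against that in the Oct4 line, with which it shares no library. In the Oct4 line, Pou5f1 went from 6420.1 and 6316 to 162 and 184, and 2047 genes (8.53%) were higher and 2590 (10.8%) lower with Dox. Sox2 RNA fell in that line as well, from 5483 and 5479.5 to 260.3 and 229.8, so that the comparison is not with loss of Oct4 alone. Of the genes higher in the Sox2 line, 55.7% were also higher in the Oct4 line, and these 1042 genes made up 50.9% of the Oct4 line's. Of those lower in the Sox2 line, 64.7% were also lower there, and these 1137 genes made up 43.9% of the Oct4 line's. Over the 13771 genes whose mean in the Sox2 line reached 10 normalized counts, the 2 sets of log2 fold changes had a Pearson r of 0.769, a description across genes that are not independent. The test of the difference called 1125 genes (4.69%) with a more positive and 510 (2.12%) with a more negative effect in the Sox2 line.

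The differences for Sox2 and Pou5f1 are set by the transgenes that Dox switches off and are not read as results. Esrrb fell by 6.36 ± 0.05 in the Oct4 line, 3.19 ± 0.071 more than in the Sox2 line, and Tdgf1, Fgf4, Tbx3 and Pecam1 fell further there too, with differences of 3.66 ± 0.043, 2.38 ± 0.1, 2.12 ± 0.059 and 2.23 ± 0.17. Klf2, little changed in the Sox2 line, fell by 1.8 ± 0.045 in the Oct4 line (difference 1.52 ± 0.064). Nanog fell by 3.41 ± 0.043 there and did not differ detectably between the lines (difference -0.068 ± 0.06, adjusted p = 0.5, limma). Zfp42 and Prdm14 had differences of 0.035 ± 0.075 and -0.15 ± 0.16 and were not called either. Klf5, Lin28a, Utf1 and Fbxo15 fell further in the Sox2 line. Lin28a had a change of 0.26 ± 0.054 with loss of Oct4 (difference -1.78 ± 0.076) and Klf5 one of -0.23 ± 0.056 (difference -1.24 ± 0.079). The difference was -1.22 ± 0.06 for Fbxo15 and -0.97 ± 0.087 for Utf1, of which the latter lies inside the limit of a call.

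Signalling genes differed in single members. Of the Nodal list, 6 genes had a more positive effect in the Sox2 line, among them Foxh1 (1.97 ± 0.16) and Gdf3 (2.01 ± 0.2), and 2 a more negative one, Lefty1 (-2.92 ± 0.53) and Lefty2 (-2.13 ± 0.43). Bmp8b and Bmpr2, higher with loss of Sox2, changed by 0.71 ± 0.26 and -0.38 ± 0.13 with loss of Oct4 (differences 2.13 ± 0.37 and 1.7 ± 0.18). Dusp4, Dusp6, Spry4 and Etv4 fell in both lines, with differences that were not called. Cdk6, lower with loss of Sox2, had 23.1 and 49.4 against 43.8 and 56.6 in the Oct4 line and was not called there (difference -2.84 ± 0.35).

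Trophoblast genes were called higher in 22 of 28 cases in the Oct4 line, with a median of 2.51. In 6 of them the effect was more negative in the Sox2 line and in 1 it was more positive. Gata2, which reached 5039 and 5136 normalized counts with loss of Oct4, had a difference of -2.17 ± 0.21, Dlx3 one of -1.58 ± 0.17, Tfap2a one of -1.5 ± 0.35 and Cldn4, for a claudin of trophectoderm, one of -1.36 ± 0.076. Eomes, not called in either line, had a difference of -1.72 ± 0.24. Msx2 fell in the Sox2 line and had 31.1 and 20.7 against 47.2 and 43.3 in the Oct4 line (difference -3.01 ± 0.44). The keratins Krt7, Krt8, Krt18 and Krt19 and the placental gene Plac1 had differences of -0.18 to 0.28, none of them called.

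Some genes had effects of opposite sign with loss of the 2 factors. Dnmt3a rose in the Sox2 line and had 1246 and 1299 against 742 and 796 in the Oct4 line (difference 1.79 ± 0.062). Map1a, a microtubule-associated protein gene, rose from 334 and 309 to 1209 and 1296 in the Sox2 line and fell from 475 and 458 to 102 and 121 in the Oct4 line (difference 4.01 ± 0.14). Actn2 rose in the Sox2 line and fell from 538 and 508 to 159 and 168 in the Oct4 line (difference 3.32 ± 0.17). Over the muscle list, 13 genes were higher and 2 lower with loss of Sox2, 6 were higher and 11 lower with loss of Oct4, and 14 had a called difference toward the Sox2 line. Nes, not called in the Sox2 line, fell from 658 and 631 to 159 and 145 in the Oct4 line (difference 2.09 ± 0.12). Interferon-stimulated genes, 22 of which were higher with loss of Oct4, had 8 differences toward the Oct4 line and none toward the Sox2 line.

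**Figure D5:**
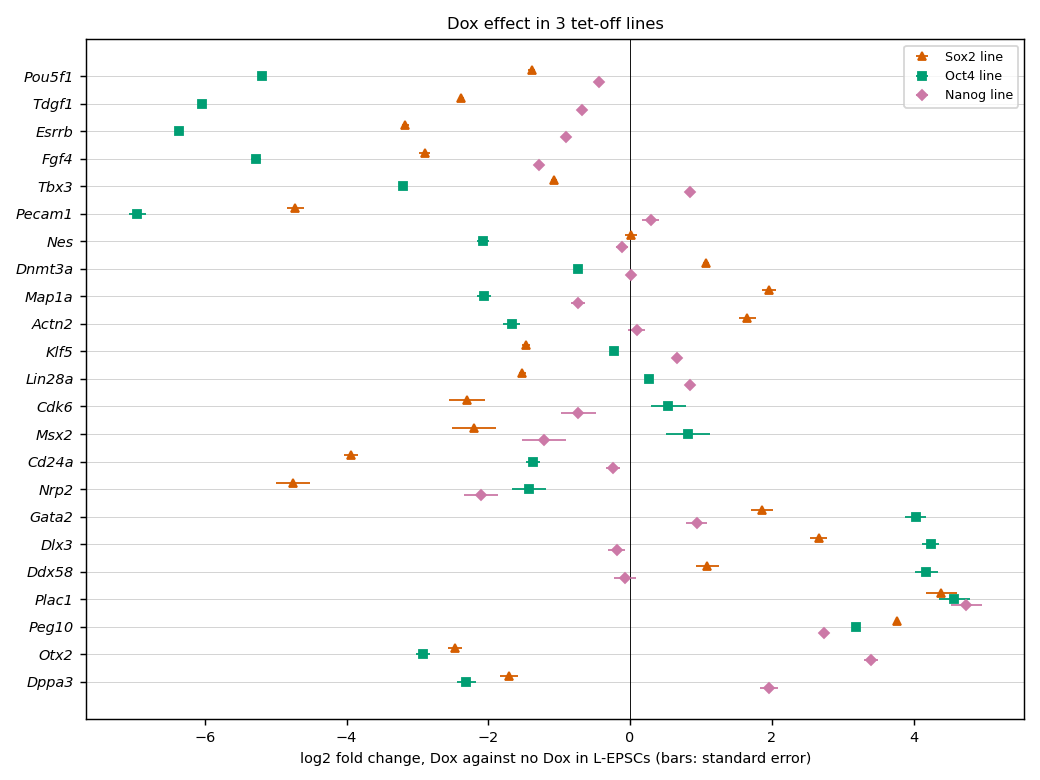
Log2 fold change of Dox-treated against untreated L-EPSCs on the x axis for 23 genes (y axis), with bars for the standard error from the fit. Orange triangles are the Sox2 line, green squares the Oct4 line and purple diamonds the Nanog line, with 2 libraries a group. Esrrb, Tdgf1 and Fgf4 lie further left in the Oct4 line, Klf5 and Lin28a further left in the Sox2 line, and Otx2 and Dppa3 have opposite signs in the Sox2 and Nanog lines.

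In the Nanog line, Nanog RNA went from 9119 and 8847 to 3166 and 3112 with Dox (-1.52 ± 0.043), so the fall of its RNA was partial. The study reports loss of Nanog protein with Dox in this line, by Western blot. With Dox, 672 genes (2.8%) were higher and 621 (2.59%) lower. These shared 212 higher genes with the Sox2 line (11.3% of the Sox2 line's and 31.5% of the Nanog line's) and 223 lower ones (12.7% and 35.9%). All 3 lines shared 157 higher and 182 lower genes, under the same drug. Among those named here, Plac1, Rhox6, Rhox9, Peg10, H19 and Igf2 rose in the Nanog line as well, with log2 fold changes of 2.73 to 5.23. The Dox effect was more positive in the Sox2 than in the Nanog line for 1337 genes (5.57%) and more negative for 1377 (5.74%).

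Of the 26 naive factors, 18 had a more negative effect in the Sox2 line. Sox2 had 4849.6 and 4848 without and 3939.5 and 3895 with Dox in the Nanog line, and Esrrb 8181 and 8093 against 4376 and 4307. Otx2 and Dppa3 went in opposite directions. Otx2 rose from 22.4 and 25.5 to 256 and 269 in the Nanog line (difference -5.87 ± 0.14) and Dppa3 from 779 and 765 to 2939 and 3090.3 (difference -3.68 ± 0.19). Of the trophoblast list, 15 genes were more positive in the Sox2 line, among them Krt18 (2.36 ± 0.082) and Dlx3 (2.85 ± 0.17). The list as a whole had 6 higher and 3 lower genes in the Nanog line, with a median of 0.13. Phlda2 rose in the Sox2 line and had 516 and 496 against 388 and 425 in the Nanog line (difference 4.24 ± 0.097).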

How the data were processed

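Poly(A) RNA was sequenced from 2 libraries in each of 9 groups of 3 tet-off lines. Per the submitters' processing notes and the study's methods, the authors trimmed reads with Trim Galore 0.6.4, mapped them to NCBIM37 (mm9) with STAR 2.7.9a, counted them per gene with HTSeq 0.11.2 and used DESeq2 (given as 4.1.1). The strand setting is not given in the sources used here. The deposited values are a signal, gene counts divided by a size factor of each library, and 100% of them came out as whole reads within a tolerance of 0.001.

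From these values, log2(normalized count + 1) was fitted with limma 3.58.1 (R 4.3.3, limma-trend) over 18 libraries, for 24007 of 25476 genes with at least 2 reads in all. Differences between lines were contrasts of the same fit. The fit has 9 residual degrees of freedom. Recovered reads were tested with edgeR 4.0.16 (quasi-likelihood, 1681 genes higher and 1697 lower) and DESeq2 1.42.0. The steps were tested on simulated data. Counting intervals and floors (3 reads per library) cover counting error only. Genes were named as Sox2 and list members, as the 15 largest called changes in each direction with a mean of at least 100 and treated values all above or all below the untreated ones, and as the 5 largest differences in each direction from each other line. Members and the 26 lists were chosen with earlier results of these data known, and 3 lists were added after values were seen. Positions come from the NCBIM37 annotation. The table of J1 cells was not used here. Sox1, Sry, Pou3f1, Cer1 and some other list genes were not analysed here, and a few genes that the naming rule selects are not reported here.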

Additional observations from a re-analysis of the deposited data

Results flagged for a closer look

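The Dox effect differed between lines by a test of the difference itself (limma, adjusted p below 0.05 and a difference beyond 1 on the log2 scale). Against the Oct4 line, 1125 genes were more positive and 510 more negative in the Sox2 line, and against the Nanog line 1337 were more positive and 1377 more negative.

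Toward the Sox2 line and away from the Oct4 line, large differences among well-expressed genes were those of Adgrb2, an adhesion receptor gene of brain (4.52), A2m (4.19), Khdc3, an oocyte and ESC gene (4.1), and Map1a (4.01). Adgrb2 had 344 and 338 against 378 and 388 normalized counts in the Sox2 line, and 333 and 347 against 18.4 and 13.3 in the Oct4 line. Khdc3 had 737 and 755 against 697 and 649 in the Sox2 line, and 1183 and 1170.5 against 76 and 48.8 in the Oct4 line. Adgrb2 and Khdc3 were thus not called with loss of Sox2 and fell with loss of Oct4. A2m fell in both lines, by 3.27 and 7.46, and Map1a rose in one and fell in the other.

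In the opposite direction stood Nrp2 (-3.34), the RNA sensor gene Ddx58 (-3.09), the melanosome gene Pmel (-2.6), the surface glycoprotein gene Cd24a (-2.56) and S100a13 (-2.51). Cd24a went from 606 and 701 to 37.1 and 46.6 in the Sox2 line. Ddx58 rose in both lines, to 244 and 221 with loss of Sox2 and to 628 and 662 with loss of Oct4.

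Against the Nanog line, large positive differences were those of Atp2b2, a calcium pump gene (4.58), Phlda2 (4.24), the plexin gene Plxna4 (4.23) and Obsl1 (3.96). Atp2b2 went from 76.7 and 77.8 to 506 and 539.7 in the Sox2 line. Large negative ones were those of Nr0b1 (-7.13), Sox2 (-6.26), Otx2 (-5.87) and Ly6g6e (-5.43), of which that of Sox2 is set by the transgene. The value of Nr0b1 depends on the pseudocount, since it had no read in Dox-treated Sox2 L-EPSCs.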

How the results depend on the processing

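No called change of a named gene reversed its direction under any alternative. Median centring moved the median over genes whose mean reached 10 normalized counts from 0.0098 to -0.056. Changes that close to 0 therefore have no firm sign. With a limit of 0.6 on the log2 scale in place of 1, the Sox2 line had 2921 genes higher and 2647 lower, the differences from the Oct4 line were 1914 and 1183, and those from the Nanog line 2230 and 2153. Other tests, scalings, filters and a pseudocount of 0.1 kept each of these counts over all genes within 1.5 times, while list counts moved by a few members. Leaving out 1 library gave 1602 to 1706 genes higher and 1511 to 1708 lower in the Sox2 line, 1006 to 1148 and 480 to 633 for the differences from the Oct4 line, 1223 to 1350 and 1224 to 1336 for those from the Nanog line, and a Sox2 change of -6.65 to -6.48. A lone library was then assumed to vary like the other groups. With the replicate number as a block, 1840 genes were higher and 1754 lower, but same-numbered libraries did not deviate together (r = 6.51e-05 over 14173 genes), so the numbers do not pair the libraries. Of the named genes, 43 lost a call when only the libraries compared were fitted, among them 4 SOX members, which left 3 lower. With 2 libraries a group that may share a culture, and 1 line, low-count calls are the least certain.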
